A study of Bos taurus with 2 samples.

Results

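The 8 genes described here encode enzymes that make and oxidize hydrogen sulfide, namely ETHE1, TST, MPST, SUOX, SQRDL, CBS, CTH and CDO1. They were taken by symbol from 21209 gene symbols measured by RNA-Seq in pools of bovine in vitro fertilized embryos, and ETHE1 and TST among them were picked on their measured values, for their low level in the siRNA-injected pool. One library came from embryos injected with siRNA against CDKN1C, an imprinted inhibitor of the cell cycle, and the other from sham-injected embryos, which were punctured with the needle but received no siRNA. Both pools were produced by the same in vitro system, and the comparison asks which transcripts differ after siRNA delivery. There was 1 library per pool, so no difference has an error or a p-value. The sources used here give neither the number of embryos in the sequenced pools nor their day and siRNA dose apart from those of the injection experiments as a whole, and an effect of siRNA as such cannot be told apart from that of the CDKN1C sequence.

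Hydrogen sulfide is a gas that cells make from cysteine and homocysteine and that blocks cytochrome c oxidase at high levels. In mitochondria, SQRDL (now SQOR, sulfide quinone oxidoreductase) oxidizes it and passes the electrons to coenzyme Q, ETHE1 (persulfide dioxygenase) oxidizes the persulfide that results, TST (rhodanese) moves sulfur between thiosulfate and glutathione, and SUOX (sulfite oxidase) turns sulfite into sulfate. CBS and CTH form the transsulfuration pathway, which turns homocysteine into cysteine, MPST takes sulfur from mercaptopyruvate, a product of cysteine, and CDO1 commits cysteine to oxidation towards taurine and sulfate.

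ETHE1, TST and MPST were lower in the injected pool, while CTH and CBS were higher. Levels are FPKM, fragment numbers corrected for transcript length and sequencing, as the authors deposited them. Differences are log2 ratios of the injected to the sham value, each with 1 FPKM added, a scale that understates the change of weakly expressed genes. Pairs of values are given with the sham pool first. Differences were taken over the 7984 symbols averaging 1 FPKM or more. Of the 8 genes, 7 reached that mean, and SQRDL did not. Of these 7, 3 were lower in the injected pool by 2-fold or more, against 15.7% of all genes compared. At least 4-fold lower were 2, ETHE1 and TST, against 1.05% of all genes. Since both were picked for this, nothing is read from either count. CTH alone was at least 2-fold higher, against 4.92% of all genes. The median log2 difference was -0.31 over the 7 genes and -0.17 over all genes compared. Without ETHE1 and TST it was -0.21 over 5 genes, of which 1, MPST, was at least 2-fold lower and 1, CTH, at least 2-fold higher. Scaled to the same total FPKM in both pools, the median of all genes was 0.16, so the sign of small differences depends on the scaling.

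**Figure D1:**
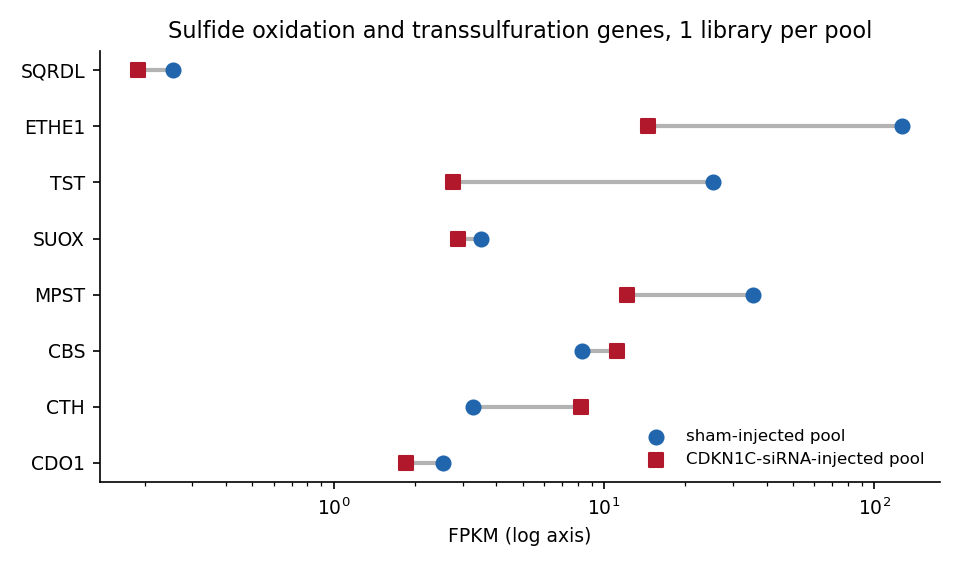
FPKM (horizontal, log axis) of the 8 genes in sham-injected embryos (blue circles) and siRNA-injected embryos (red squares), with 1 library per group and a grey line joining the values of a gene. ETHE1, TST and MPST lie far to the left in the injected pool, CTH and CBS lie to the right, and SQRDL is below 0.3 FPKM in both.

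SQRDL, the entry enzyme of mitochondrial sulfide oxidation, was barely detected. It was 0.253 FPKM in the sham pool against 0.189 FPKM after siRNA injection, on chromosome 10 of bosTau7 from 66153810 to 66207596. Both values were so low that the pools cannot be ordered by them, and the read number behind them is unknown.

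ETHE1, the enzyme downstream of it, was the most abundant of the 8 genes in both pools. Its locus lies on chromosome 18 of bosTau7 from 51364563 to 51383878. ETHE1 was 126 FPKM in the sham pool against 14.5 FPKM after siRNA injection, 8.70-fold lower. In the sham pool its level was above that of 91.0% of the genes compared, and in the injected pool above that of 69.6%. Its log2 difference was -3.04, and 3 of 7984 genes, ETHE1 included, reached a value this low, which only describes why it was picked.

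TST, the rhodanese gene, was lower by a similar ratio. It lies on chromosome 5 from 80585175 to 80591756 and was 25.3 FPKM in the sham pool against 2.75 FPKM after siRNA injection, 9.18-fold lower. With a log2 difference of -2.81, 8 of 7984 genes, TST included, reached a value this low, which again only describes the choice. By level, TST ranked 3 among the 8 genes in the sham pool and 6 in the injected pool, where it was below CBS, CTH and SUOX.

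MPST, which is related to TST in sequence, was 35.6 FPKM in the sham pool against 12.2 FPKM after siRNA injection. The 2.91-fold lower value gave a log2 difference of -1.47, and 411 of 7984 genes reached a value this low. MPST lies next to TST on chromosome 5, from 80592576 to 80602033, with 819 bases between the loci, so they are not independent in position.

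SUOX, which completes the oxidation of sulfite, did not share these differences in size. It was 3.50 FPKM in the sham pool against 2.89 FPKM after siRNA injection, a log2 difference of -0.21 that is close to the median of all genes. SUOX lies on chromosome 5 too, from 61595013 to 61599283, far from TST and MPST. Scaled to the same total FPKM in both pools, its log2 difference was 0.093, so that even its direction rests on the scaling.

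The transsulfuration genes went the other way. CTH, cystathionine gamma-lyase, which releases cysteine from cystathionine, was 3.27 FPKM in the sham pool against 8.26 FPKM after siRNA injection, 2.52-fold higher. Its log2 difference was 1.12, with 270 of 7984 genes as high or higher, on chromosome 3 from 79610329 to 79638986. CBS, cystathionine beta-synthase, which makes that cystathionine, was 8.33 FPKM in the sham pool against 11.2 FPKM after siRNA injection. Its log2 difference of 0.39 was within 2-fold, on chromosome 1 from 146442382 to 146465060. CTH was below 2-fold with 5 FPKM added in place of 1, at 0.68, and stayed higher in the injected pool under each alternative tried, as did CBS.

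CDO1, cysteine dioxygenase, was 2.54 FPKM in the sham pool against 1.85 FPKM after siRNA injection. Its log2 difference was -0.31, within 2-fold, on chromosome 10 from 4170580 to 4182102.

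**Figure D2:**
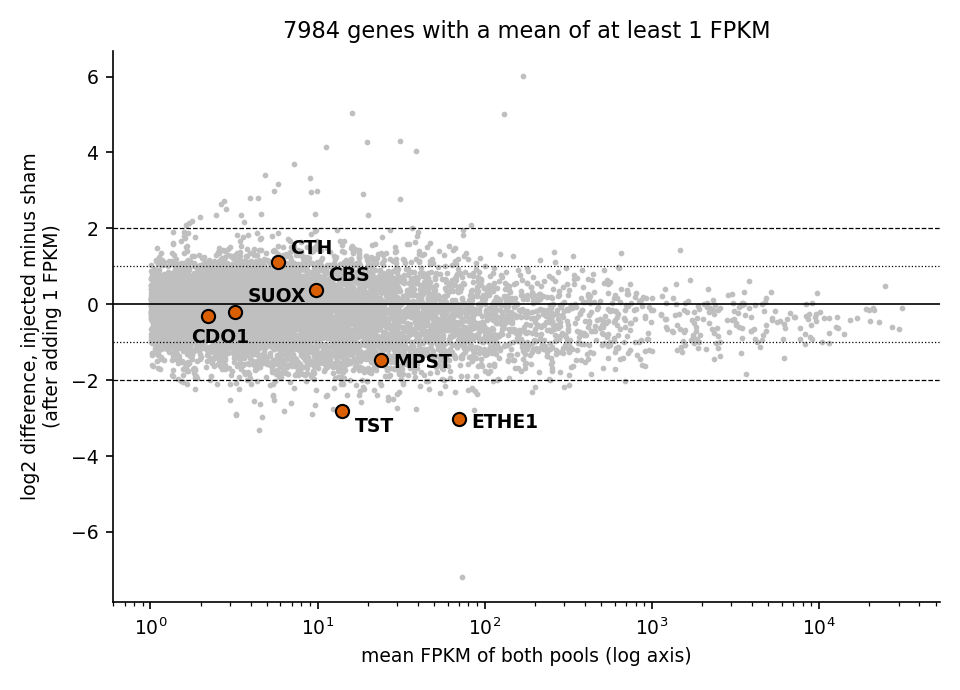
Log2 difference between the pools after adding 1 FPKM (vertical) against the mean FPKM of both pools (horizontal, log axis) for the 7984 genes compared (grey) and the 7 of the 8 genes that reached a mean of 1 FPKM (orange). Dotted lines mark 2-fold and dashed lines 4-fold differences. ETHE1 and TST lie below the 4-fold line, MPST below the 2-fold line and CTH above it.

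Ratios between genes within a pool do not depend on how the pools were scaled to each other. ETHE1 was 5.0 times TST in the sham pool and 5.27 times TST in the injected pool. ETHE1 was 3.55 times MPST in the sham pool against 1.19 times after siRNA injection, and 15.2 times CBS against 1.30 times. The widest of the 7 ratios examined was that of ETHE1 to CTH, at 38.6 in the sham pool and 1.76 in the injected pool. As ETHE1 and TST were picked for their low injected values, these ratios only describe that choice.

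The make-up of the 8 genes differed between the pools. They summed to 205 FPKM in the sham pool against 53.9 FPKM after siRNA injection. ETHE1 held 61.6% of that sum in the sham pool and 27.0% in the injected pool, TST 12.3% and 5.11%, and MPST 17.4% and 22.7%. CBS and CTH together were 11.6 FPKM of the sum in the sham pool and 19.4 FPKM in the injected pool. In pooled embryos, fewer cells that express a gene and less RNA per cell cannot be told apart.

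The genes around these enzymes were taken from 12 lists of neighbouring sulfur pathways, which name 108 symbols. Of 92 found, 62 had a mean of at least 1 FPKM, of which 7 were lower (11.3%) and 1 was higher (1.61%) by 2-fold or more. Both shares were below those of all genes, 15.7% and 4.92%, and the median log2 difference was -0.19, or 0.11 at equal total FPKM. After adding 1 FPKM, no gene compared was past 2-fold in the lists of cysteine transamination, the molybdenum cofactor, sulfate use, coenzyme Q synthesis and rhodanese-domain relatives. Nor was CSAD, the 1 gene compared for taurine synthesis, which was 2.06-fold higher without that addition. With 0.1 FPKM added in place of 1, sulfate use had 1 and coenzyme Q synthesis 2 genes at least 2-fold lower, against 20.5% of all genes. Sulfide methylation with methanethiol oxidation had no gene averaging 1 FPKM or more.

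Among the genes listed for the supply of homocysteine, of which AHCY and BHMT2 were not found by symbol, a wide difference was seen in GNMT. This glycine methyltransferase, which uses up S-adenosylmethionine, was 139 FPKM in the sham pool against 28.8 FPKM after siRNA injection, a log2 difference of -2.23. MAT2A, the enzyme that makes S-adenosylmethionine outside the liver, was higher, at 31.8 against 53.6 FPKM, and remained within 2-fold after adding 1 FPKM. The remethylation genes MTR and MTRR, which turn homocysteine back into methionine, both had means below 1 FPKM. The median of the 5 genes compared was -0.18, or 0.099 at equal total FPKM.

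Genes for the reduction of persulfides and disulfides went both ways. TXN2, the mitochondrial thioredoxin, was 145 FPKM in the sham pool against 56.7 FPKM after siRNA injection, a log2 difference of -1.34. TXNRD1, the cytosolic thioredoxin reductase, was 7.32 against 18.0 FPKM, a log2 difference of 1.19, and was the only companion gene past 2-fold upward after adding 1 FPKM. Its substrate TXN was abundant and nearly equal, at 2196 against 2099 FPKM. Of 9 genes compared, 1 was 2-fold lower and 1 was 2-fold higher, against 15.7% and 4.92% of all genes, with a median of -0.0092. At equal total FPKM none was 2-fold lower and 3 were 2-fold higher, with a median of 0.33. At that scaling 7.43% of all genes were at least 2-fold lower and 11.9% higher, with a median of 0.16.

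Iron-sulfur cluster genes, which take their sulfur from cysteine through the desulfurase NFS1, differed in both directions. LYRM4, which stabilizes NFS1, was 31.6 FPKM in the sham pool against 11.3 FPKM after siRNA injection, and IBA57, a late assembly factor, was 15.6 against 6.34 FPKM. ISCU, the scaffold protein gene, was 108 against 55.7 FPKM, just within 2-fold after adding 1 FPKM, while NFU1, a carrier of clusters, was 209 against 318 FPKM. Of 13 genes, 10 were lower and 2 of these past 2-fold, with a median of -0.41. Both counts are read against 58.3% of all genes lower by any amount and 15.7% by 2-fold or more, and the latter share is near that of the list. At equal total FPKM 7 were lower and 1 of these past 2-fold, with a median of -0.099. Over all genes, 7.43% were then at least 2-fold lower and the median was 0.16.

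Relatives by fold or domain were compared for ETHE1, with 6 genes, and for TST, with 3. HAGH, a glyoxalase with the same metallo-beta-lactamase fold as ETHE1, was 26.2 FPKM in the sham pool against 10.4 FPKM after siRNA injection. MBLAC1, another gene of that fold, was 43.6 against 14.4 FPKM, and PNKD was 699 against 382 FPKM. The list has 6 genes compared and also takes in GLO1 as a glyoxalase, at 13.9 against 11.9 FPKM. Of the 6, 5 were lower and 1, LACTB2, was higher, at 4.35 against 6.92 FPKM. Their median was -0.73, with 2 at least 2-fold lower, against 15.7% of all genes. At equal total FPKM the median was -0.37 with 1 at least 2-fold lower, against 7.43% of all genes. With gene density fitted by loess none was, against 7.30% of all genes. TSTD1, a small rhodanese-domain gene, was far more abundant than TST, at 1801 against 1138 FPKM, a log2 difference of -0.66. MOCS3, which has a rhodanese domain too, was 4.40 against 4.23 FPKM. The median of the 3 rhodanese-domain relatives was -0.28, or -0.021 at equal total FPKM.

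Of the transporters and the remaining lists, 1 gene was past 2-fold after adding 1 FPKM. SLC3A2, the heavy chain shared by the cystine exchanger and other amino acid carriers, was 10.4 FPKM in the sham pool against 3.24 FPKM after siRNA injection, a log2 difference of -1.42. SLC7A11, the light chain of the cystine exchanger, was below 0.2 FPKM in both pools, at 0.0524 and 0.190 FPKM, whereas SLC1A1, which carries cysteine, was 21.7 against 20.0 FPKM, and CTNS, the lysosomal cystine exporter, 9.62 against 7.56 FPKM. COQ7 and COQ5 of coenzyme Q synthesis were 214 against 190 FPKM and 11.9 against 22.8 FPKM. MOCS2 and GPHN, which make the molybdenum cofactor that SUOX needs, were 1.30 against 2.27 FPKM and 1.95 against 3.13 FPKM. The aspartate aminotransferase genes GOT1 and GOT2, which can deaminate cysteine, were 18.3 against 10.1 FPKM and 74.1 against 54.6 FPKM, and CSAD of taurine synthesis was 1.15 against 2.36 FPKM. The taurine transporter gene SLC6A6 was listed at 0 FPKM in the injected pool and was 0.0373 FPKM in the sham pool. Of the genes for sulfate use, SULT1A1 and SLC35B2 were 30.7 against 27.6 FPKM and 6.85 against 4.37 FPKM. SELENBP1 and TPMT of sulfide methylation and methanethiol oxidation were below 1 FPKM in both pools, at 0.595 against 0.266 FPKM and 0.257 against 0.392 FPKM.

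**Figure D3:**
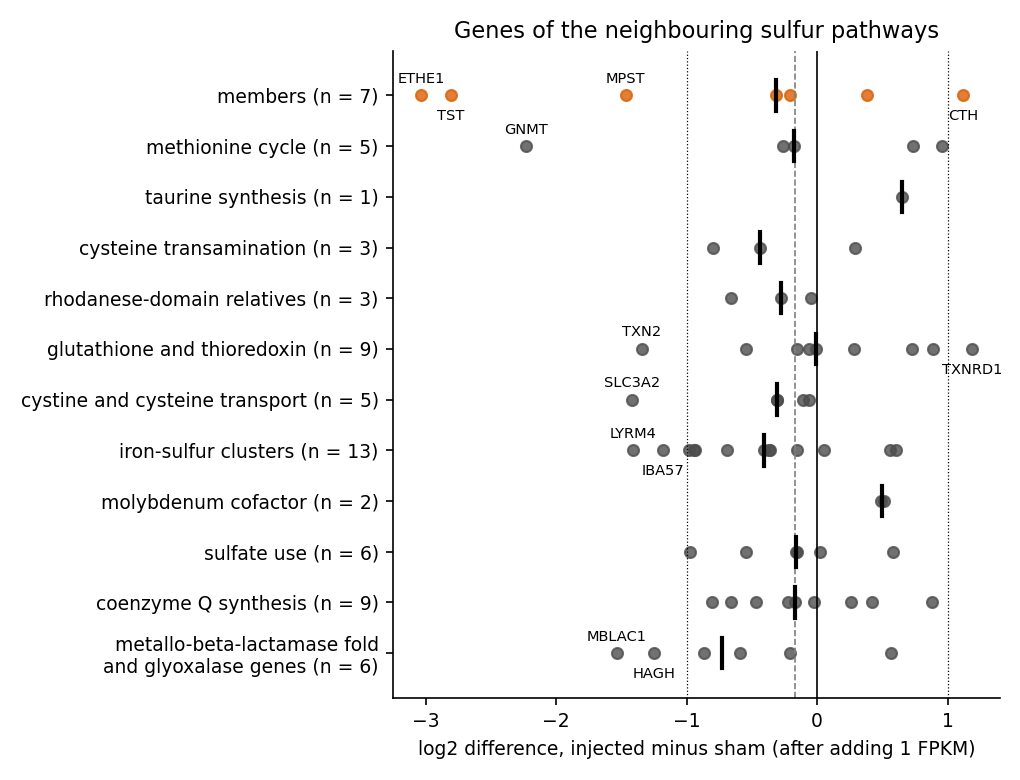
Log2 difference between the pools after adding 1 FPKM (horizontal) for each gene averaging 1 FPKM or more in the lists of sulfur pathways, 1 point per gene. Orange points are the enzymes described here, black bars are list medians, the dashed line is the median of all genes at -0.17 and dotted lines mark 2-fold. ETHE1, TST and GNMT lie farthest to the left and TXNRD1 and CTH farthest to the right.

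Position in the genome was examined because TST and MPST are neighbours. The nearest locus before TST, 1750 bases away, was C5H22orf33, whose place RefSeq gives to TEX33 in a later assembly. C5H22orf33 was listed at 0 FPKM in the sham pool and was 9.65 FPKM in the injected pool, the reverse of TST. Of 21209 symbols, 4 were listed at 0 in the sham pool and at 5 FPKM or more in the injected pool, and 4 showed the reverse. Added together, TST and C5H22orf33 had a log2 difference of -0.97 in place of -2.81, a sum over loci whose transcripts differ in length. Whether reads were divided between these loci differently in the pools was not tested. On the other side of MPST, the nearest locus averaging 1 FPKM or more was RAC2, a small GTPase gene 188647 bases away, at 2.94 against 0.819 FPKM.

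The nearest neighbours of ETHE1 were lower too. PHLDB3, 1471 bases before it, was 3.39 FPKM in the sham pool against 1.72 FPKM after siRNA injection, and the zinc finger gene ZNF575, 7664 bases after it, was 2.10 against 0.511 FPKM. Of 27 genes averaging 1 FPKM or more within 1 Mb of ETHE1, 8 were lower by 2-fold or more and none was higher by as much, with log2 differences from -1.91 to 0.46. Within 1 Mb of TST, 4 of 12 were at least 2-fold lower, TXN2 and MPST among them, and 1 was 2-fold higher, C5H22orf33. The share at least 2-fold lower over all genes was 15.7%. It was 30.9% over genes with 51 to 116 others within 1 Mb, the range that holds ETHE1. Over genes with 26 to 51, the range that holds TST, it was 19.1%. At equal total FPKM the genes lower by 2-fold or more numbered 5 of 27 around ETHE1 and 1 of 12 around TST, against 7.43% of all genes.

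**Figure D4:**
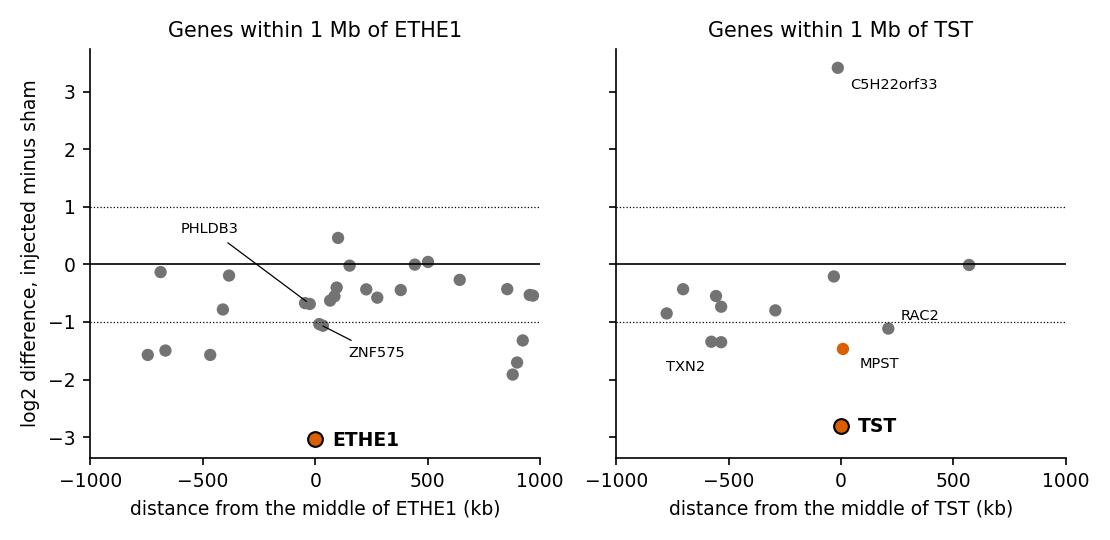
Log2 difference between the pools after adding 1 FPKM (vertical) of the genes averaging 1 FPKM or more within 1 Mb of ETHE1 (left) and TST (right), against the distance between the middles of the loci in kb (horizontal). Orange points are the enzymes described here, and dotted lines mark 2-fold. ETHE1 and TST, picked for their low values, stand at the centres, and C5H22orf33, beside TST, is at 3.41.

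Differences moved with gene density and with locus length across the whole data. Of the 1996 genes with the most neighbours, 51 to 116 within 1 Mb, 30.9% were lower in the injected pool by 2-fold or more, and of the 1996 with the fewest, 0 to 15, 4.36% were. ETHE1 had 73 such neighbours, TST and MPST 38, SUOX 83, CBS 37, CDO1 19 and CTH 7. After a loess fit on this number, the log2 difference was -2.38 for ETHE1, -2.43 for TST, -1.09 for MPST and 0.91 for CTH, so that CTH was no longer past 2-fold. Of the 1996 genes with the shortest loci, 164 to 7681 bases, 26.9% were at least 2-fold lower, and of the 1996 with the longest 6.01% were. TST spans 6582 bases, SUOX 4271, MPST 9458 and ETHE1 19316. After a loess fit on locus length, the log2 difference was -2.84 for ETHE1, -2.31 for TST, -1.06 for MPST and 1.17 for CTH. The part of gene density and of locus length in these differences beyond these fits was not tested.

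The genes most like ETHE1 and TST in level in both pools were not their neighbours. Of the 3 for ETHE1, LOC100850136 lay on chromosome 18 as well, from 55437406 to 55559874, and the others on other chromosomes. The 3 for TST lay on chromosomes other than its own. Likeness was the distance between genes in log2 of sham and of injected FPKM after adding 1, over 2 libraries. Nearest to ETHE1 were LOC100850136 at 91.3 against 17.1 FPKM, VPS28, an endosomal sorting gene, at 111 against 21.4 FPKM, and the Y-linked LOC100849362 at 152 against 21.2 FPKM. Nearest to TST were RNASEH2A, a ribonuclease H2 subunit gene, at 22.1 against 2.45 FPKM, the carbonic anhydrase gene CA4 at 19.8 against 2.95 FPKM, and ENDOG, a mitochondrial nuclease gene, at 19.7 against 2.88 FPKM.

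The targeted gene CDKN1C was 49.5 FPKM in the sham pool against 14.6 FPKM after siRNA injection, 3.40-fold lower. All 8 trophectoderm markers had means of at least 1 FPKM and summed to 17133 FPKM in the sham pool against 7211 FPKM after siRNA injection. By 2-fold or more 3 were lower and 1 was higher, against 15.7% and 4.92% of all genes. KRT8 and KRT18 made up nearly all of this sum and were lower. CDX2, TEAD4 and GATA3 were lower too, with log2 differences of -1.12, -0.98 and -0.69, while TFAP2C, ELF5 and IFNT2 were higher, with 0.25, 0.37 and 2.08. Inner cell mass markers summed to 313 and 182 FPKM, with 1 of 4 at least 2-fold lower, POU5F1 at 170 and 56.3 FPKM. Hypoblast markers summed to 19.3 and 17.8 FPKM, with 1 of 3 at least 2-fold lower, HNF4A at a log2 difference of -1.15. Of 8 cumulus and granulosa cell markers 2 had such means, and the list summed to 22.1 and 8.47 FPKM, mostly HSD3B1 at 15.7 and 3.29 FPKM, with FSHR at a log2 difference of -0.19, while PTX3 and AMH were at 0 in both pools. Oocyte markers summed to 25.0 and 10.7 FPKM, nearly all of it ZP3. Liver markers, relevant because CBS, CTH and CDO1 are abundant in liver, summed to 0.0095 and 0.0277 FPKM, with ALB and TTR at 0 in both pools. Of 3 blood markers, HBA was 13.2 and 13.0 FPKM, HBB was at 0 in both pools and PTPRC was 0.0047 and 0.017 FPKM. The part of the differences in these markers in the values of ETHE1, TST and MPST was not tested.

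ETHE1, TST and MPST, each as a single locus, stayed at least 2-fold lower under all 9 alternatives. These changed the pseudocount, filter, scaling, locus choice or loess fit. The filters and the locus choice could not move these values, as each gene has 1 locus. ETHE1 and TST were also picked for low values, so their ranges only describe how far the values moved. The log2 difference ranged from -3.11 to -2.38 for ETHE1, from -3.15 to -1.97 for TST and from -1.53 to -1.06 for MPST. The sum of TST and C5H22orf33 is not among the 9 and put TST at -0.97, within 2-fold. The range was 0.68 to 1.44 for CTH and 0.28 to 0.75 for CBS, both above 0 throughout. SUOX and CDO1 had ranges that crossed 0, from -0.27 to 0.48 and from -0.44 to 0.037.

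**Figure D5:**
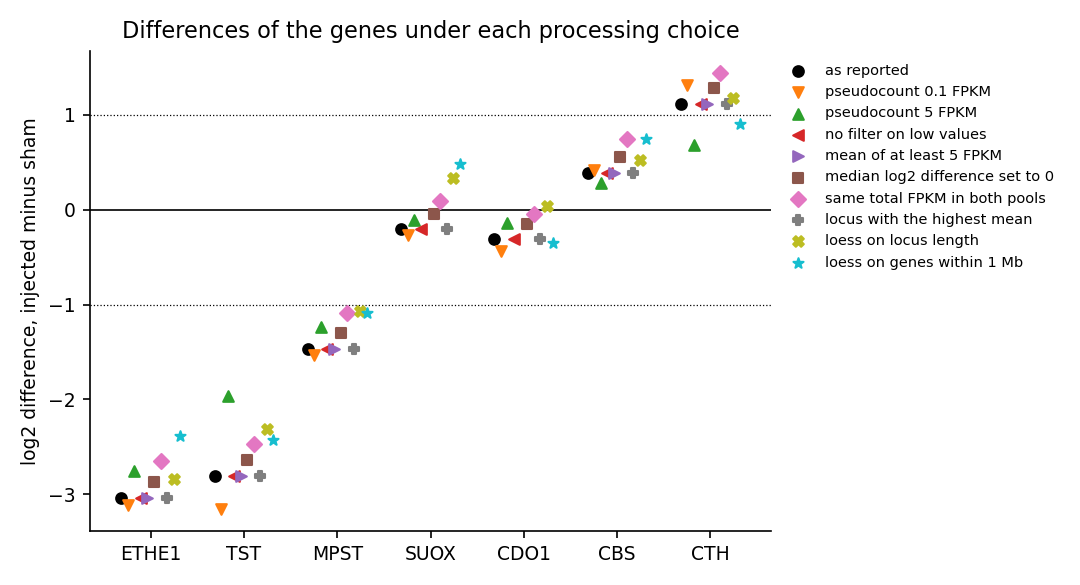
Log2 difference between the pools (vertical) of the 7 genes averaging 1 FPKM or more as reported (black circles) and under 9 alternatives in the processing (other symbols), with dotted lines at 2-fold. ETHE1, TST and MPST stay below the lower line and CBS and CTH above 0, while SUOX and CDO1 cross 0. The sum of TST and C5H22orf33, at -0.97 and so above that line, is not drawn. SUOX and CDO1 have no value at a mean of at least 5 FPKM.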

How the data were processed

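Total RNA of each embryo pool was amplified before library preparation. Reads were aligned to bosTau7 with TopHat by the authors, who estimated FPKM with Cufflinks 2.0.2, applied upper-quartile normalization, corrected for sequence bias and deposited these FPKM values. The gene annotation is not given in the sources used here. Of 22220 loci, 615 had no symbol and were left out, and loci that share a symbol were summed. Each of the 8 genes had 1 locus.

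The difference was log2 of injected over sham FPKM after adding 1 FPKM, over symbols averaging 1 FPKM or more, and a fold of 2 or 4 on this scale was counted. With 1 library per group no test was run. FPKM carries no read counts, so depth is unknown. At loci below 0.3 FPKM in both pools the commonest ratio of injected to sham was 0.886.

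The members and gene lists were chosen with earlier results of these data known. Genes were named by a rule: all members, from each list the 2 most abundant genes and those past 2-fold, the 3 genes most like ETHE1 and TST, and the nearest loci of ETHE1, TST and MPST. MTR, MTRR, SLC7A11, LACTB2 and GLO1 fall outside it and were named after their values were seen. Alternatives added 0.1 or 5 FPKM, dropped the filter or raised it to 5 FPKM, set the median difference to 0, equalized total FPKM, took the locus of highest mean per symbol, or subtracted a loess curve (span 0.3) over locus length. A loess fit on genes within 1 Mb and the sum of TST and C5H22orf33 were added after the data were seen. The calculation was tested on simulated data. Software was Python 3.11.15 with NumPy 2.4.6, pandas 2.3.3, matplotlib 3.10.9 and statsmodels 0.14.6.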

Additional observations from a re-analysis of the deposited data

How the results depend on the processing

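Of the 7 enzyme genes, 3 were at least 2-fold lower, as under every alternative tried except the sum of TST and C5H22orf33, which gave 2. Over all genes the share was 15.7% as reported and ran from 7.30% to 20.5% under the alternatives. Because ETHE1 and TST were picked for low values, nothing is read from the counts of lower genes. With 5 FPKM added, 1 was at least 4-fold lower and 0 were at least 2-fold higher, against 1.49% of all genes 2-fold higher. With the loess fit on genes within 1 Mb, chosen after the data were seen, 0 were at least 2-fold higher, against 6.90% of all genes. The share of all genes at least 4-fold lower is given only for the values as reported, 1.05%. With a mean of at least 5 FPKM, which leaves 5 of these genes, their median log2 difference was -1.47, and after the loess fit on locus length it was 0.037. With C5H22orf33 added to TST, also chosen after the data were seen, TST was at -0.97 and 1 gene was at least 4-fold lower.

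The companion genes depended more on the scaling. Counts at least 2-fold lower and higher were 11 and 3 with 0.1 FPKM added, 4 and 6 at equal total FPKM, 4 and 5 after the loess fit on length, and 2 and 5 after that on gene density. The shares of all genes were, in the same order, 20.5% and 8.67%, 7.43% and 11.9%, 8.60% and 7.45%, and 7.30% and 6.90%. The number of companion genes higher was 0 with 5 FPKM added and 4 with the median set to 0, against 1.49% and 7.72% of all genes. Their median log2 difference was 0.11 at equal total FPKM. Over all genes compared, equal totals moved the median from -0.17 to 0.16, and the share of higher genes among those past 4-fold from 28.2% to 64.8%. That share was 46.9% with the median set to 0, 58.9% after the loess fit on length and 53.9% after that on gene density. Genes at least 2-fold higher numbered 393 as reported, 692 with 0.1 FPKM added and 119 with 5 FPKM, and those lower 1255, 1637 and 598. The cause was not tested. No paired analysis was possible because each group has 1 library. With no replicates and unknown depth, the spread between pools cannot be given for any value, and low values such as those of SQRDL, CDO1 and SUOX are the least certain.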
